A study of Mesocricetus auratus with 24 samples.

Results

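The strain difference that was shared by both sound conditions was measured in the inferior colliculus (IC) of GASH:Sal and control Syrian hamsters. It was computed for each gene as the mean of the GASH:Sal minus Syrian difference in naïve animals and the same difference in stimulated animals. A large difference in 1 condition can also move this mean, so the values of both conditions are given for the leading genes. All 24 arrays of the series entered it, 12 from GASH:Sal and 12 from Syrian hamsters, and of 19938 genes tested 2 passed the threshold of an adjusted p under 0.05. The 4 groups held 6 animals each, all 16 weeks old: naïve and stimulated hamsters of the Syrian control strain, and naïve and stimulated hamsters of the GASH:Sal strain. Naïve animals heard no test sound, and the IC of stimulated animals was taken 60 min after the seizure evoked by sound, or after the same sound in controls. GASH:Sal is a selectively bred colony with an inherited susceptibility, kept at the University of Salamanca, so strain, colony and housing cannot be told apart. The sex of the animals on the arrays was not stated in the labels.

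The IC is the main relay of the auditory midbrain, and it is where seizures evoked by sound begin. In audiogenic rodents its excitability is known to depend on the balance between glutamatergic drive and inhibition by GABA and glycine. Neurons also switch on immediate-early genes for a short time after strong activity. Averaging the strain difference over animals with and without sound asks which transcripts differ between the strains in either state.

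Hamster RNA was read by mouse probes. A difference in the amount of a transcript and a difference in how well the sequence of each strain binds the probe cannot be told apart, and the signal of a probe set is not a level that can be set against that of another gene. In whole tissue, fewer cells of a type and less RNA per cell cannot be told apart either. As a rough check of the tissue, the mean signal lay above the median of all genes for 11 of 13 midbrain and IC markers, among them En1, Pax7, Tfap2b, Gata3 and Meis2. The same held for 8 of 12 cerebellum, 5 of 9 telencephalon, 3 of 6 blood cell and 3 of 12 choroid plexus and ependyma markers, so signals alone did not separate the IC from neighbouring brain regions. Pairs of arrays correlated at 0.965 to 0.993 over the genes tested. The arrays of stimulated Syrian hamster 4 and naïve GASH:Sal hamster 6 stood apart, with mean correlations of 0.969 and 0.971 against 0.979 to 0.987 for the others, and the values of genes and lists that changed most are given with and without them.

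Rasgrf2 and Arl15 passed the adjusted threshold, both higher in GASH:Sal hamsters, and no gene passed as lower. The share of genes that passed was 0.01% of those tested. Differences were small throughout. The standard error of a difference had a median of 0.063 (log2), and Glra3 was the only gene with an unadjusted p under 0.05 and a difference of at least 1.5-fold. No gene separated the 12 GASH:Sal arrays from the 12 Syrian arrays without overlap (0 of 19938).

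Rasgrf2 (probe set 10410995) encodes an exchange factor that is activated by calcium and calmodulin and switches on the small GTPases Ras and Rac. Its signal ran from 5.67 to 6.03 (log2, median 5.85) in naïve Syrian hamsters and from 6.28 to 6.36 (median 6.32) in naïve GASH:Sal hamsters. After sound it ran from 5.82 to 6.30 (median 6.05) in Syrian and from 5.87 to 6.62 (median 6.24) in GASH:Sal hamsters. The naïve groups did not overlap, with the 6 naïve GASH:Sal arrays close together, and the stimulated groups overlapped. Rasgrf2 was 0.36 higher in GASH:Sal hamsters (log2, SE 0.063, 95% interval 0.23 to 0.48), a 1.28-fold difference (limma, adjusted p = 0.0494). The difference was 0.48 in naïve and 0.23 in stimulated animals, and 11 of 12 GASH:Sal arrays lay above the Syrian median.

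Arl15 (probe set 10407291) encodes a small GTPase of the Arf-like family. In naïve animals its signal ran from 5.16 to 5.45 (median 5.35) in Syrian and from 5.59 to 6.01 (median 5.86) in GASH:Sal hamsters. In stimulated animals the corresponding values were 5.29 to 5.998 (median 5.48) and 5.45 to 5.98 (median 5.87). The naïve groups did not overlap and the stimulated groups did. Stimulated Syrian hamster 2, at 5.998, lay well above the next array of its group at 5.53, and stimulated GASH:Sal hamster 2, at 5.45, lay below that array too. Arl15 was 0.40 higher in GASH:Sal hamsters (SE 0.0717, 95% interval 0.25 to 0.54), a 1.32-fold difference (limma, adjusted p = 0.0494). It was 0.50 higher in naïve and 0.29 higher in stimulated GASH:Sal hamsters, and all 12 GASH:Sal arrays lay above the Syrian median.

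Both calls lay close to the threshold. The labels name the animals in 2 styles, replicates 1 to 3 and replicates 4 to 6 of every group, and this label series was held constant in the fit. Within the label series the difference was 0.35 and 0.36 for Rasgrf2, and 0.34 and 0.46 for Arl15. When each array was left out in turn, both genes passed in 6 of 24 fits and neither passed in 18. Without the arrays that stood apart, Rasgrf2 was 0.39 higher (adjusted p = 0.0053) and Arl15 0.42 higher (adjusted p = 0.00995).

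**Figure D1:**
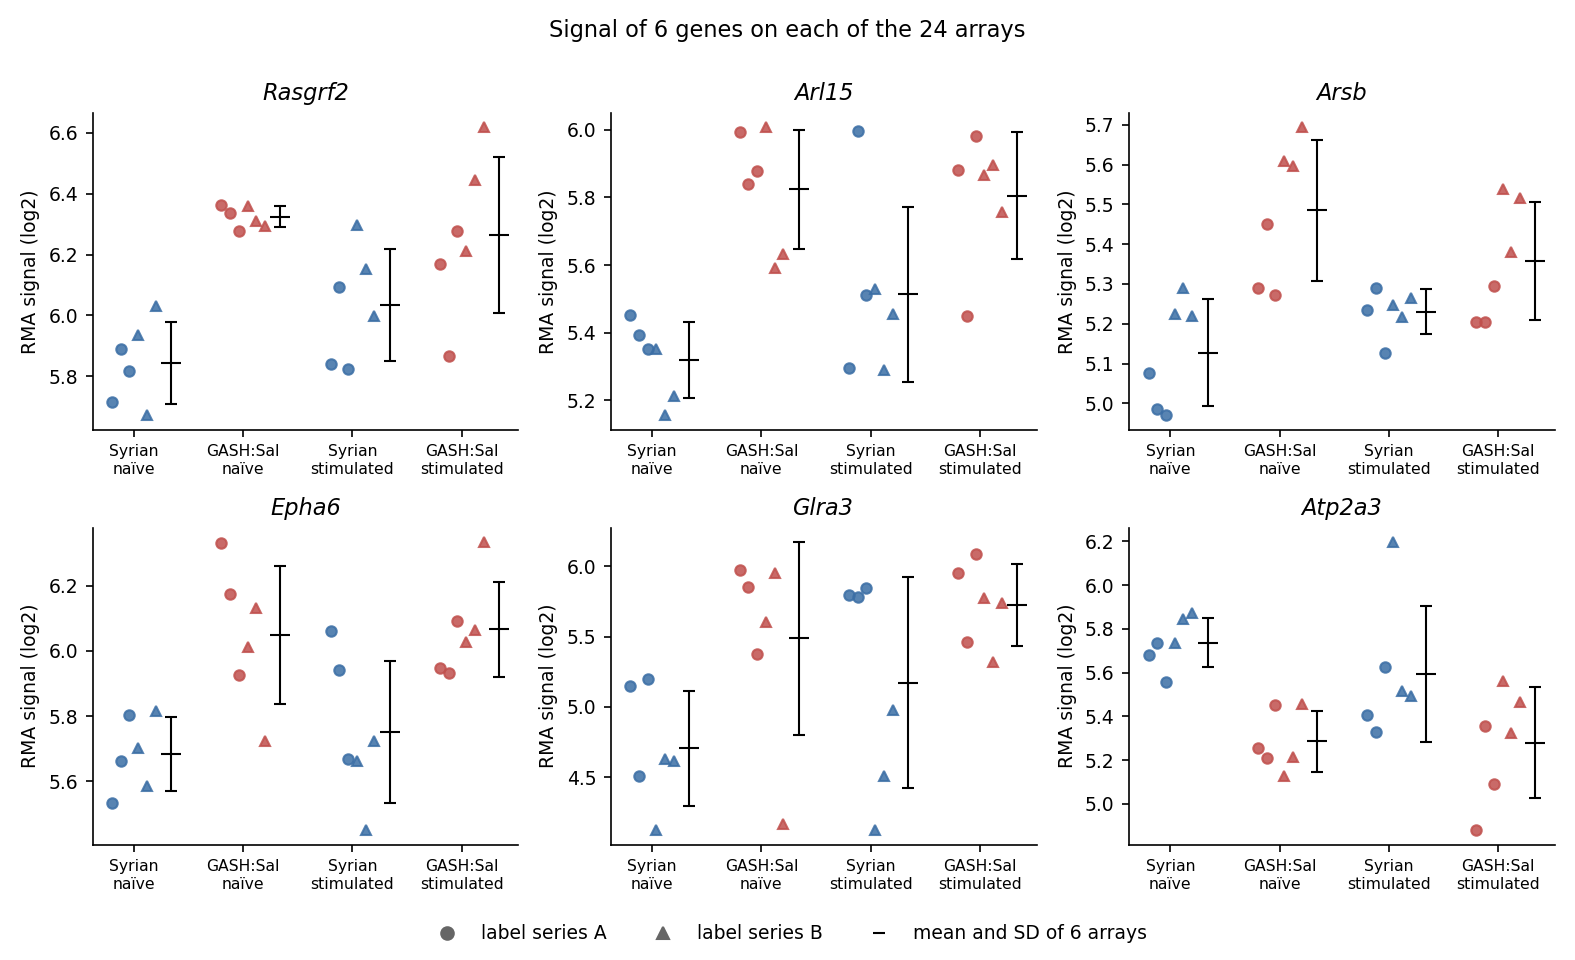
Signal (log2, vertical axes) of Rasgrf2, Arl15, Arsb, Epha6, Glra3 and Atp2a3 on each array of the 4 groups. Circles are replicates 1 to 3 and triangles replicates 4 to 6, blue is Syrian and red is GASH:Sal, and the black mark with its bar is the mean and SD of 6 arrays. Rasgrf2 in naïve GASH:Sal hamsters lies between 6.28 and 6.36, above the highest naïve Syrian array at 6.03, whereas Glra3 spreads from 4.17 to 5.97 in the naïve GASH:Sal group.

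Apart from these genes, the lowest p-values among higher genes went to transcripts of different functions, none of which passed the adjusted threshold. Arsb (adjusted p = 0.0897) encodes arylsulfatase B, the lysosomal enzyme that removes sulfate from dermatan and chondroitin sulfate. Its signal was 4.97 to 5.29 (median 5.15) in naïve Syrian, 5.27 to 5.69 (median 5.52) in naïve GASH:Sal, 5.13 to 5.29 (median 5.24) in stimulated Syrian and 5.21 to 5.54 (median 5.34) in stimulated GASH:Sal hamsters. In 9 of 12 GASH:Sal arrays it lay above the highest Syrian array. The difference was 0.24 (SE 0.0467), with 0.36 in naïve and 0.13 in stimulated animals. A second, dimmer Arsb probe set gave -0.056 (SE 0.054), so the probe sets of this gene disagreed. Arsb was 0.22 higher without the arrays that stood apart (adjusted p = 0.0381).

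Glra3, a subunit of the glycine receptor that carries inhibitory chloride current, had the largest difference of the 30 genes with the lowest p-values. Its signal ran from 4.13 to 5.20 (median 4.62) in naïve Syrian and from 4.17 to 5.97 (median 5.73) in naïve GASH:Sal hamsters. In stimulated animals it ran from 4.12 to 5.84 (median 5.38) in Syrian and from 5.32 to 6.09 (median 5.76) in GASH:Sal hamsters. Both pairs of groups overlapped, with naïve GASH:Sal hamster 6 at the bottom of its group. The difference was 0.67 (SE 0.155, 1.59-fold, adjusted p = 0.193), with 0.40 in replicates 1 to 3 and 0.93 in replicates 4 to 6. On all arrays it was 0.78 in naïve and 0.55 in stimulated animals. Without the arrays that stood apart it was 0.69 (SE 0.118, limma, adjusted p = 0.00753), with 1.0 in naïve and 0.38 in stimulated animals.

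Gstp1, a glutathione S-transferase that conjugates glutathione to reactive compounds, was 0.45 higher (SE 0.096, 1.37-fold, adjusted p = 0.141). Its signal was 6.69 to 7.24 (median 6.91) in naïve Syrian and 7.31 to 7.89 (median 7.67) in naïve GASH:Sal hamsters, without overlap. After sound the ranges were 6.27 to 7.61 (median 7.14) and 6.85 to 7.73 (median 7.42), which overlapped. The difference was 0.66 in naïve and 0.25 in stimulated animals. Without the arrays that stood apart it was 0.34 (adjusted p = 0.0381).

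Epha6, a receptor for the ephrins that guide axons, showed nearly the same difference in naïve (0.37) and stimulated animals (0.31). Its signal was 5.53 to 5.82 (median 5.68) in naïve Syrian, 5.72 to 6.33 (median 6.07) in naïve GASH:Sal, 5.45 to 6.06 (median 5.70) in stimulated Syrian and 5.93 to 6.33 (median 6.05) in stimulated GASH:Sal hamsters. All 12 GASH:Sal arrays lay above the Syrian median, and both pairs of groups overlapped. Its mean difference was 0.34 (SE 0.0693, adjusted p = 0.12).

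The remaining higher genes had differences between 0.21 and 0.33 and adjusted p-values from 0.141 to 0.197. Spock3, an extracellular proteoglycan of the testican family, was 0.28 higher, and Vps13a, which moves lipids between membranes and whose loss causes chorea with acanthocytosis, was 0.29 higher. Gda, the guanine deaminase, was 0.21 higher, with 9 of 12 GASH:Sal arrays above the highest Syrian array. The nuclear import receptor Ipo9 (0.25) and the actin exporter Xpo6 (0.24) lay in all 12 GASH:Sal arrays above the Syrian median. Cldn11, a tight junction protein of myelin, was 0.25 higher, and Zer1, a substrate receptor of a ubiquitin ligase, 0.30 higher. Ptges3l was 0.33 higher. Nfia, a transcription factor of glial development, was 0.26 higher on its brighter probe set and 0.048 (SE 0.072) on the other. When the arrays that stood apart were left out, Spock3 (0.34, adjusted p = 0.00479), Vps13a (0.34, adjusted p = 0.0053), Ptges3l (0.36, adjusted p = 0.0142), Ipo9 (0.28, adjusted p = 0.0142) and Xpo6 (0.24, adjusted p = 0.0381) passed the adjusted threshold, and Gda (0.0667), Zer1 (0.108), Cldn11 (0.107) and Nfia (0.124) had adjusted p-values above it.

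Among genes that were lower in GASH:Sal hamsters, Atp2a3 had the lowest p. It encodes a pump of the SERCA family, which returns calcium from the cytosol to the endoplasmic reticulum. Its signal ran from 5.56 to 5.87 (median 5.74) in naïve Syrian and from 5.13 to 5.45 (median 5.23) in naïve GASH:Sal hamsters. After sound it ran from 5.33 to 6.20 (median 5.50) in Syrian and from 4.88 to 5.56 (median 5.34) in GASH:Sal hamsters. The naïve groups did not overlap, all 12 GASH:Sal arrays lay below the Syrian median, and stimulated Syrian hamster 4 was the highest array. The difference was -0.38 (SE 0.0753, 1.30-fold lower, adjusted p = 0.0903), with -0.45 in naïve and -0.31 in stimulated animals. Without the arrays that stood apart it was -0.34 (adjusted p = 0.0142).

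The other 14 lower genes had differences from -0.19 to -0.40 and adjusted p-values from 0.165 to 0.371. Of all 15 lower genes, 12 lay below the median signal, against 4 of the 15 higher genes. Dim genes as a whole leaned lower in the deposited values. Mir9-1, listed for the hairpin gene of a neuronal microRNA, was at -0.40 (SE 0.0965), with -0.17 in replicates 1 to 3 and -0.62 in replicates 4 to 6. Mir652, a further microRNA gene, was at -0.30. Myl12b, a regulatory light chain of non-muscle myosin, was at -0.22, and its GASH:Sal range of 5.41 to 5.83 overlapped the Syrian range of 5.64 to 5.96. The zinc finger factor Sall2 was at -0.22 and the muscle factor Myf5 at -0.28. Defb13 (-0.28) and Defb15 (-0.22), beta-defensins of epithelial defence, H2-M5 (-0.24), an MHC class I gene, and C4a (-0.25), a complement component, belong to families of similar genes whose probes may share signal. Leprot, which regulates the surface level of the leptin receptor, was at -0.30, the prion-like Sprn at -0.23 and the acyl-CoA synthetase Acsm1 at -0.19. AI854703 and 4930596D02Rik were at -0.27 and -0.25.

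Across the 30 genes, the sign of the difference was the same in naïve and stimulated animals and in both label series, for 15 of 15 higher and 15 of 15 lower genes. They were ranked by the p of the mean over both conditions, which favours such agreement. The naïve difference was the larger for 14 of 15 higher genes and for 8 of 15 lower genes. A test of the difference between the conditions passed for none of the 19938 genes (limma, lowest adjusted p = 0.99995, 734 genes or 3.68% at an unadjusted p under 0.05), so the larger naïve values were not shown to differ from the stimulated ones.

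**Figure D2:**
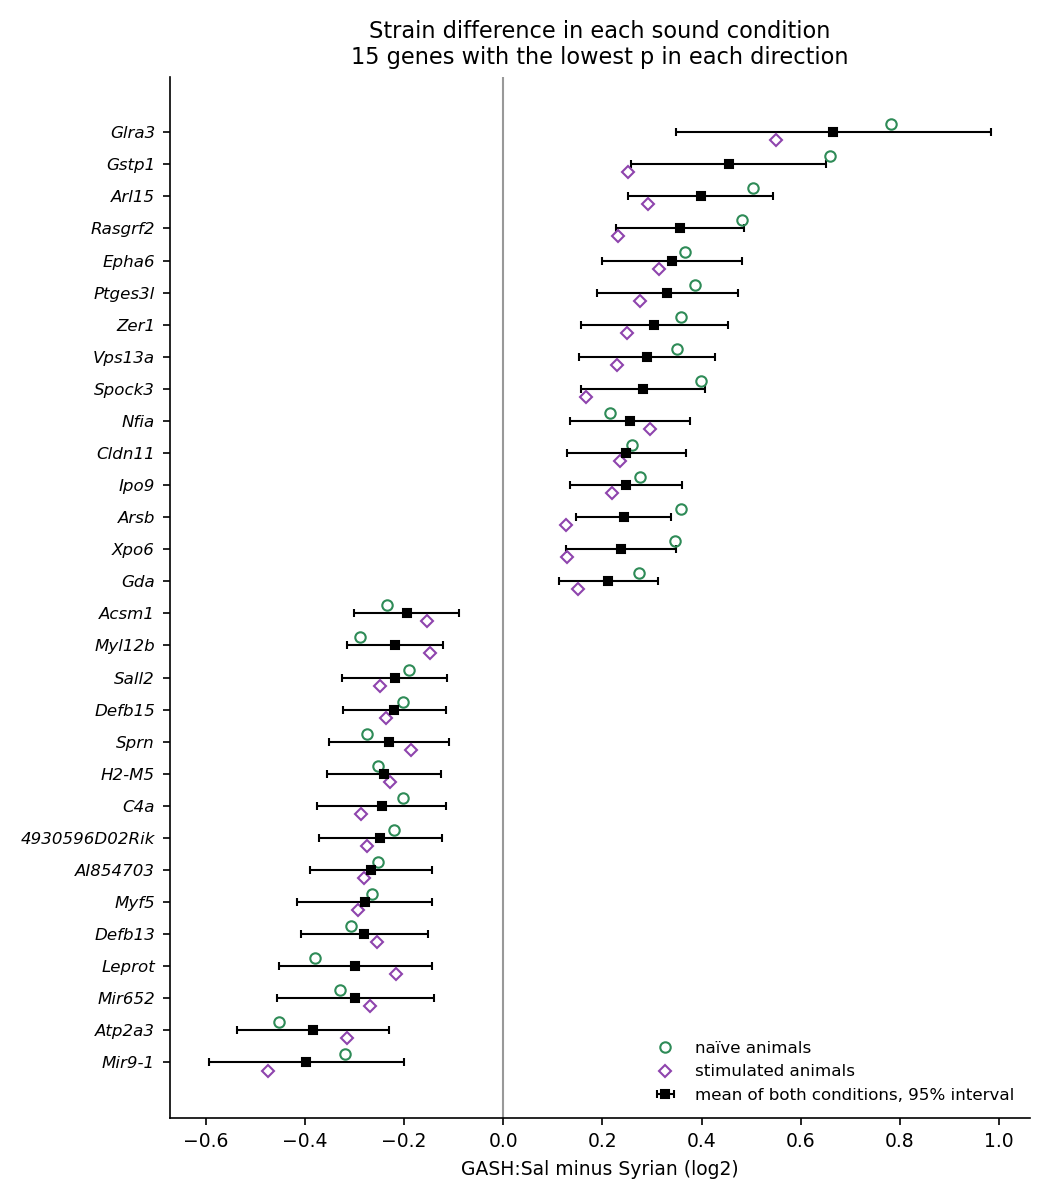
Strain difference (GASH:Sal minus Syrian, log2, horizontal axis) of the 15 higher and 15 lower genes with the lowest p-values. Black squares with bars are the mean of both conditions and its 95% interval, green circles the naïve difference and purple diamonds the stimulated difference. Naïve and stimulated values fall on the same side of 0 for each of the 30 genes, from 0.67 for Glra3 to -0.40 for Mir9-1.

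Naïve and stimulated groups held different animals, so a gene chosen in one condition could be read in arrays that had not chosen it. Over all genes 57% had the same sign in both conditions. Of 1394 genes with an unadjusted p under 0.05 in naïve animals alone, 64.4% differed in the same direction in stimulated animals, and 6.60% did so with a p under 0.05, against 3.81% of all genes. Of 1113 such genes in stimulated animals, 68.3% had the same direction in naïve animals, and 8.27% with a p under 0.05, against 4.499% of all genes. At a p under 0.01 the same direction was found for 65.5% of 296 and 64.0% of 211 genes, and at a p under 0.001 for 25 of 31 and 11 of 12 genes, of which 5 and 2 had a p under 0.05 in the other condition. Neither condition alone gave a gene past the adjusted threshold: naïve arrays gave 0 (limma, lowest adjusted p = 0.0586, for Rasgrf2, 1394 genes at an unadjusted p under 0.05) and stimulated arrays gave 0 (lowest adjusted p = 0.377, 1113 genes). In the fit of all arrays, 84 genes (0.421%) had an unadjusted p under 0.05 in naïve and in stimulated animals with the same sign, 38 higher and 46 lower.

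Across genes, naïve and stimulated differences correlated at 0.211 (Pearson, 19938 genes, which share arrays and are not independent). The differences in the label series, which also held different animals, correlated at 0.0404. Over all genes 52.2% had the same sign in both series. Of 1615 genes with an unadjusted p under 0.05 in replicates 1 to 3, 56.1% had the same sign in replicates 4 to 6, and of 1707 such genes in replicates 4 to 6, 50.9% had the same sign in replicates 1 to 3. The shares were 62.4% of 356 and 47.3% of 400 genes at a p under 0.01, and 28 of 43 and 25 of 55 genes at a p under 0.001.

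At an unadjusted p under 0.05, 1593 genes (7.99%) differed between the strains. Of these, 585 (2.93%) were higher and 1008 (5.06%) lower in GASH:Sal hamsters. This split depended on the scaling of the arrays. With each array centred on its median 967 genes were higher and 547 lower, and after a further quantile normalization 740 were higher and 708 lower, so the split had no direction that held under each scaling. The median difference of all genes was -0.015 as deposited, 0.0065 after centring and -0.0013 after quantile normalization.

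Bright and dim genes lay on opposite sides in the deposited values. Among the decile of genes with the brightest mean signal, 6.97% were higher and 2.01% lower, with a median difference of 0.031. In the dimmest decile 0.853% were higher and 5.17% lower, with a median of -0.025. After quantile normalization the brightest decile held 2.71% higher and 5.07% lower genes and its median was -0.0029, so the sign of this pattern turned with the scaling. The rise from dim to bright genes was steeper in replicates 4 to 6, from -0.042 to 0.036, than in replicates 1 to 3, from -0.00195 to 0.021.

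**Figure D3:**
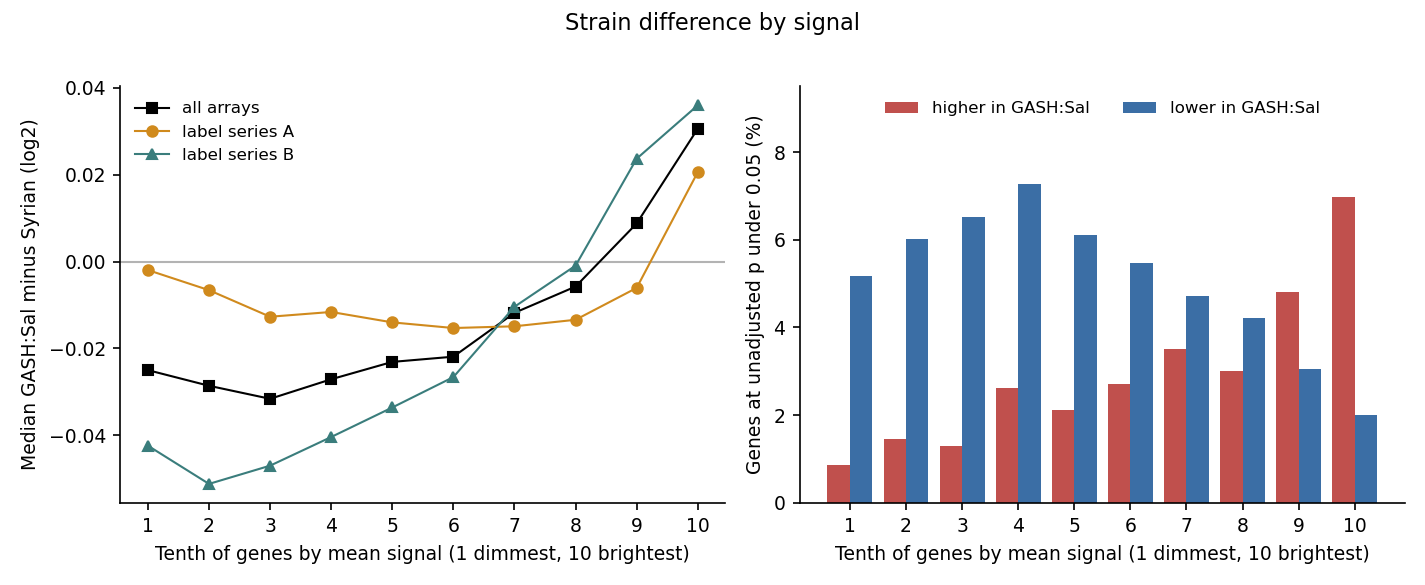
Strain difference by signal, with genes in deciles of mean signal from dimmest (1) to brightest (10) on the horizontal axes. Left, median GASH:Sal minus Syrian difference (log2) for all arrays and for each label series (A is replicates 1 to 3, B replicates 4 to 6). Right, percent of genes higher (red) and lower (blue) at an unadjusted p under 0.05. The brightest decile holds 6.97% higher and 2.01% lower genes in the deposited values.

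Genes were next read by function in 35 lists. Members with an unadjusted p under 0.05 were counted against 2.93% higher and 5.06% lower over all genes. These shares take no account of signal, and bright genes leaned higher in the deposited values. The median percentile of mean signal was 95.5 for neuron markers, 87.1 for vesicle, 85.3 for GABA and 85.1 for glutamate genes. It was 77.7 for adhesion and for epilepsy genes and 13.7 for sex-linked genes. The part of signal in the list counts was not tested. Rasgrf2 was the only list member past the adjusted threshold, and members named from here on are given with their values. Of 89 different members with an unadjusted p under 0.05, 88 had the same sign in naïve and stimulated animals. Of all genes with such a p 98.3% did, and choosing by the mean of both conditions favours this agreement. For some members nearly the whole mean came from 1 condition. Adhesion molecules and guidance receptors, which wire and hold synapses and axons, had 12 of 68 members higher (17.6%) and 0 lower. Their median was 0.058, with 0.062 in naïve and 0.069 in stimulated animals. Beside Epha6 these were Nlgn3 (0.20), a postsynaptic neuroligin, Cdh8 (0.18) and Cdh13 (0.16), which are cadherins, Nrxn3 (0.18), a presynaptic neurexin, and Cntnap2 (0.13), a relative of the neurexins. The guidance molecules among them were Slit2 (0.18, from 0.36 in naïve and 0.00031 in stimulated animals), its receptor Robo2 (0.14), Plxna2 (0.15), Sema6a (0.14), Dcc (0.14) and Unc5c (0.11). Robo2 was at 0.043 in naïve and 0.23 in stimulated animals, and Cntnap2 at 0.21 and 0.044. The count of higher adhesion and guidance genes was 15 after centring (4.85% of all genes higher) and 13 after quantile normalization (3.71% of all genes higher). It was 16 without the arrays that stood apart, where 4.38% of all genes were higher and 4.74% lower.

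Genes of monogenic epilepsy and audiogenic seizures had 6 of 29 members higher (20.7%) and 0 lower, with a median of 0.061. These were Jmjd1c (0.22), Pcdh19 (0.21), Nprl3 (0.19), Epm2a (0.16), Chrnb2 (0.14) and Cntnap2. Pcdh19, a protocadherin, differed between the label series, at -0.076 in replicates 1 to 3 and 0.50 in replicates 4 to 6. Epm2a (0.025 and 0.30), Chrnb2 (0.031 and 0.25), Nprl3 (0.076 and 0.30) and Jmjd1c (0.15 and 0.28) were also larger in replicates 4 to 6. Cntnap2 was at 0.15 and 0.11 in the same order. Nprl3 is part of the GATOR complex that restrains mTOR, Epm2a encodes laforin, and Chrnb2 is a subunit of nicotinic receptors. Jmjd1c, a protein of the histone demethylase family, passed the adjusted threshold without the arrays that stood apart (0.29, adjusted p = 0.0381).

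Genes of excitatory and inhibitory transmission lay mostly above 0. The counts were 20 of 27 in the glutamate list, 17 of 21 in the GABA list and 6 of 8 in the glycine list. These are signs of the mean of both conditions. In the same order, 20, 12 and 4 members had the same sign in naïve and stimulated animals, as did 57% of all genes. Over all genes, bright and dim, 42.6% lay above 0. After quantile normalization the glutamate median of 0.075 was 0.040, the GABA median of 0.051 was 0.049 and the glycine median of 0.041 was 0.0080. Glutamate receptors and transporters had 4 of 27 members higher (14.8%), and 0 lower. The kainate receptor subunits Grik3 (0.19), Grik1 (0.15) and Grik5 (0.14) made up most of them, with the metabotropic receptor Grm3 (0.18). Grm3 was at 0.32 in naïve and 0.046 in stimulated animals. The count of higher glutamate genes rose to 8 without the arrays that stood apart. GABA synthesis, transport and receptor genes had 1 of 21 members higher, the subunit Gabrq (0.20), and the number was 4 without those arrays. Glra3 was the single member of 8 in the glycine list. The glycine list median was 0.086 in naïve and -0.0035 in stimulated animals.

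Channel, calcium and vesicle genes had few members on either side. Potassium and HCN channel genes had 3 of 35 higher, the sodium-activated channel Kcnt2 (0.22) and the channel partners Kcnip4 (0.17) and Kcnip1 (0.13), and a median of 0.040, and 6 were higher after centring. Sodium and calcium channel genes had Scn2a (0.31), the alpha subunit of a neuronal sodium channel, higher and Cacnb2 (-0.16) lower of 24, with a median of 0.036. Among 20 calcium pumps, release channels and calcium-binding proteins, calretinin (Calb2, 0.15, from 0.29 in naïve and 0.016 in stimulated animals) and the plasma membrane pump Atp2b3 (0.13) were higher and Atp2a3 was lower, with a median of 0.061. After quantile normalization Calb2, Atp2b3 and Scn2a no longer had an unadjusted p under 0.05. Synaptic vesicle genes had Syn1 (0.24), Unc13c (0.22) and Bsn (0.14) higher and Vamp1 (-0.11) and Sv2a (-0.16) lower of 26, with a median of 0.032. Syn1, which tethers vesicles, was at -0.14 in replicates 1 to 3 and 0.61 in replicates 4 to 6. Without the arrays that stood apart 1 vesicle gene was higher and 0 lower, and after centring 5 were higher and 0 lower.

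Around Rasgrf2, the list of exchange factors and GTPase-activating proteins of Ras and Rap had 3 of 20 members higher (15%) and 0 lower, with a median of 0.055. The others were Rapgef6 (0.23) and Rapgef2 (0.15), exchange factors for Rap. Of these 20 genes, 5 were higher without the arrays that stood apart. Rasgrf2, Gstp1 and Arsb were known from earlier results of these data when the lists were chosen. The counts of their lists include these genes and are not independent of them. RGS proteins, which shorten G-protein signals, had 0 of 15 members on either side and a median of 0.031. Glutathione and redox enzymes had Gstp1 and Gss (0.15), the glutathione synthetase, higher and Gsto1 (-0.13) lower of 42, with a median of -0.022. That median was 0.0059 in naïve and -0.034 in stimulated animals. Arsb was the single member of 45 lysosomal hydrolases and sulfatases, whose median of -0.012 turned to 0.0093 after centring and 0.0088 after quantile normalization. Their median was 0.0013 in naïve and -0.0073 in stimulated animals.

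Neuropeptides and granins had 0 members higher and 2 of 22 lower, with a median of -0.028. Vgf, a granin that neurons release with their peptides, was at -0.22 (SE 0.0615) and Npy at -0.13 (SE 0.0612). Glucocorticoid-responsive genes had 3 of 16 lower (18.8%), the metallothioneins Mt1 (-0.24) and Mt2 (-0.14) and the phosphatase Dusp1 (-0.19), with a median of -0.025. Dusp1 was at -0.052 in naïve and -0.32 in stimulated animals. Immediate-early transcription factors had Egr2 (0.30) higher and Klf2 (-0.23) and Fosl2 (-0.12) lower of 26. Their median was 0.00031, at -0.057 in naïve and 0.042 in stimulated animals. Egr2 was 0.080 higher in naïve and 0.52 higher in stimulated GASH:Sal hamsters. Clock genes had Tef (0.19) higher and Arntl (-0.15) lower of 18, with a median of 0.064. When the arrays that stood apart were left out, 6 clock genes were higher and 0 lower, and the list median was 0.020 (0.030 after quantile normalization of all arrays). Hspa1a (-0.20) was the only one of 17 heat shock chaperones with such a p, and the list median of 0.0033 was -0.0061 after quantile normalization and -0.0030 without the arrays that stood apart.

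Metabolic, immune and matrix genes had few members with such a p, and their counts moved with the scaling and the arrays. Oxidative phosphorylation genes had 4 of 70 lower (5.71%), Atp5c1 (-0.20), Uqcrb (-0.16), Ndufa1 (-0.14) and Atp5j2 (-0.11), and a median of -0.0083 that was 0.013 after centring. In naïve and stimulated animals the median was 0.018 and -0.034. The count was 1 lower and 1 higher after centring, 7 lower after quantile normalization, and 6 lower and 1 higher without the arrays that stood apart. Cytosolic ribosomal protein genes had 4 of 51 lower (7.84%), Rps12 (-0.20), Rps28 (-0.19), Rps15a (-0.17) and Rps4x (-0.12), and a median of -0.013 that was 0.0084 after centring. In naïve and stimulated animals the median was 0.016 and -0.070. The count was 3 after centring, 7 after quantile normalization and 6 without the arrays that stood apart. MHC, complement and interferon genes had H2-Ab1 (-0.18) and H2-M3 (-0.17) lower of 27, with a median of -0.031. After either scaling 1 was higher and 1 lower, and without the arrays that stood apart 0 were. Extracellular matrix and perineuronal net genes had Tnr (0.17) and Hapln1 (0.17), both components of perineuronal nets, higher and Sparc (-0.17), Col4a2 (-0.16) and Tnc (-0.14) lower of 36, with a median of -0.035, and 5 were lower without the arrays that stood apart. ABC transporters had Abca5 (0.12) higher and Abcb8 (-0.18) lower of 34, and their median of -0.017 was 0.0041 after centring, when 2 were higher and 1 lower.

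Markers of cell types were read in the same way, and their part in the strain difference was not tested. Neuron markers had 3 of 14 higher (21.4%), Map2 (0.20), Nefl (0.16) and Stmn2 (0.15), and a median of 0.085. The median was 0.012 in naïve and 0.10 in stimulated animals, and 7 of the 14 markers had the same sign in both. Their median was -0.019 in replicates 1 to 3 and 0.16 in replicates 4 to 6. The mean deviation of the list ran from -0.15 to 0.23 over GASH:Sal and from -0.12 to 0.065 over Syrian arrays, where an array's deviation is the mean over members of its value minus the gene's mean. Oligodendrocyte markers had 3 of 13 higher, Cldn11, Ugt8a (0.23) and Cnp (0.22), all of myelin, and 2 lower, the lineage factors Olig1 (-0.19) and Olig2 (-0.12), with a median of 0.065. Their deviation ran from -0.12 to 0.14 over GASH:Sal and from -0.21 to 0.13 over Syrian arrays.

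Other cell types and regions were represented by fewer members. Astrocyte markers had Gjb6 (-0.12) lower of 12, and their median of -0.019 was 0.0020 after centring and 0.011 without the arrays that stood apart. The astrocyte median was 0.052 in naïve and -0.044 in stimulated animals. Microglia markers had 0 of 11 on either side and a median of -0.043. Endothelial and mural markers had Tek (0.13) higher and Cldn5 (-0.16) and Emcn (-0.15) lower of 14, with a median of -0.024. That median was 0.0089 in naïve and -0.026 in stimulated animals. Blood cell markers had 0 of 6 on either side and a median of -0.053, and choroid plexus and ependyma markers 0 of 12 and a median of 0.012. The choroid plexus and ependyma median was -0.0024 in naïve and -0.0047 in stimulated animals. Cbln3 (-0.14) of 12 cerebellum markers and Emx1 (-0.12) of 9 telencephalon markers were lower, with list medians of -0.029 and -0.039. Cbln3 had opposite signs in the conditions, at -0.30 in naïve and 0.020 in stimulated animals, and neither gene kept an unadjusted p under 0.05 after centring. Tfap2b (0.19, from 0.38 in naïve and 0.0082 in stimulated animals), of 13 midbrain and IC markers, was higher, with a list median of 0.014. That list median was 0.045 in naïve and -0.0099 in stimulated animals. Sex-linked genes had 3 of 6 lower, with a median of -0.10. These were Uty (-0.22, from -0.021 in naïve and -0.43 in stimulated animals), Xist (-0.14, from -0.049 and -0.22) and Kdm5d (-0.20). The deviation of the sex-linked list ran from -0.22 to 0.16 over GASH:Sal and from -0.061 to 0.16 over Syrian arrays. The part of sex in the strain difference was not tested. The probe sets of Uty, Kdm5d and Xist were dim, at percentiles 13.5, 18.2 and 13.8 of mean signal. Signal decile 2, where they lie, held 6.02% lower and 1.45% higher genes in the deposited values.

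**Figure D4:**
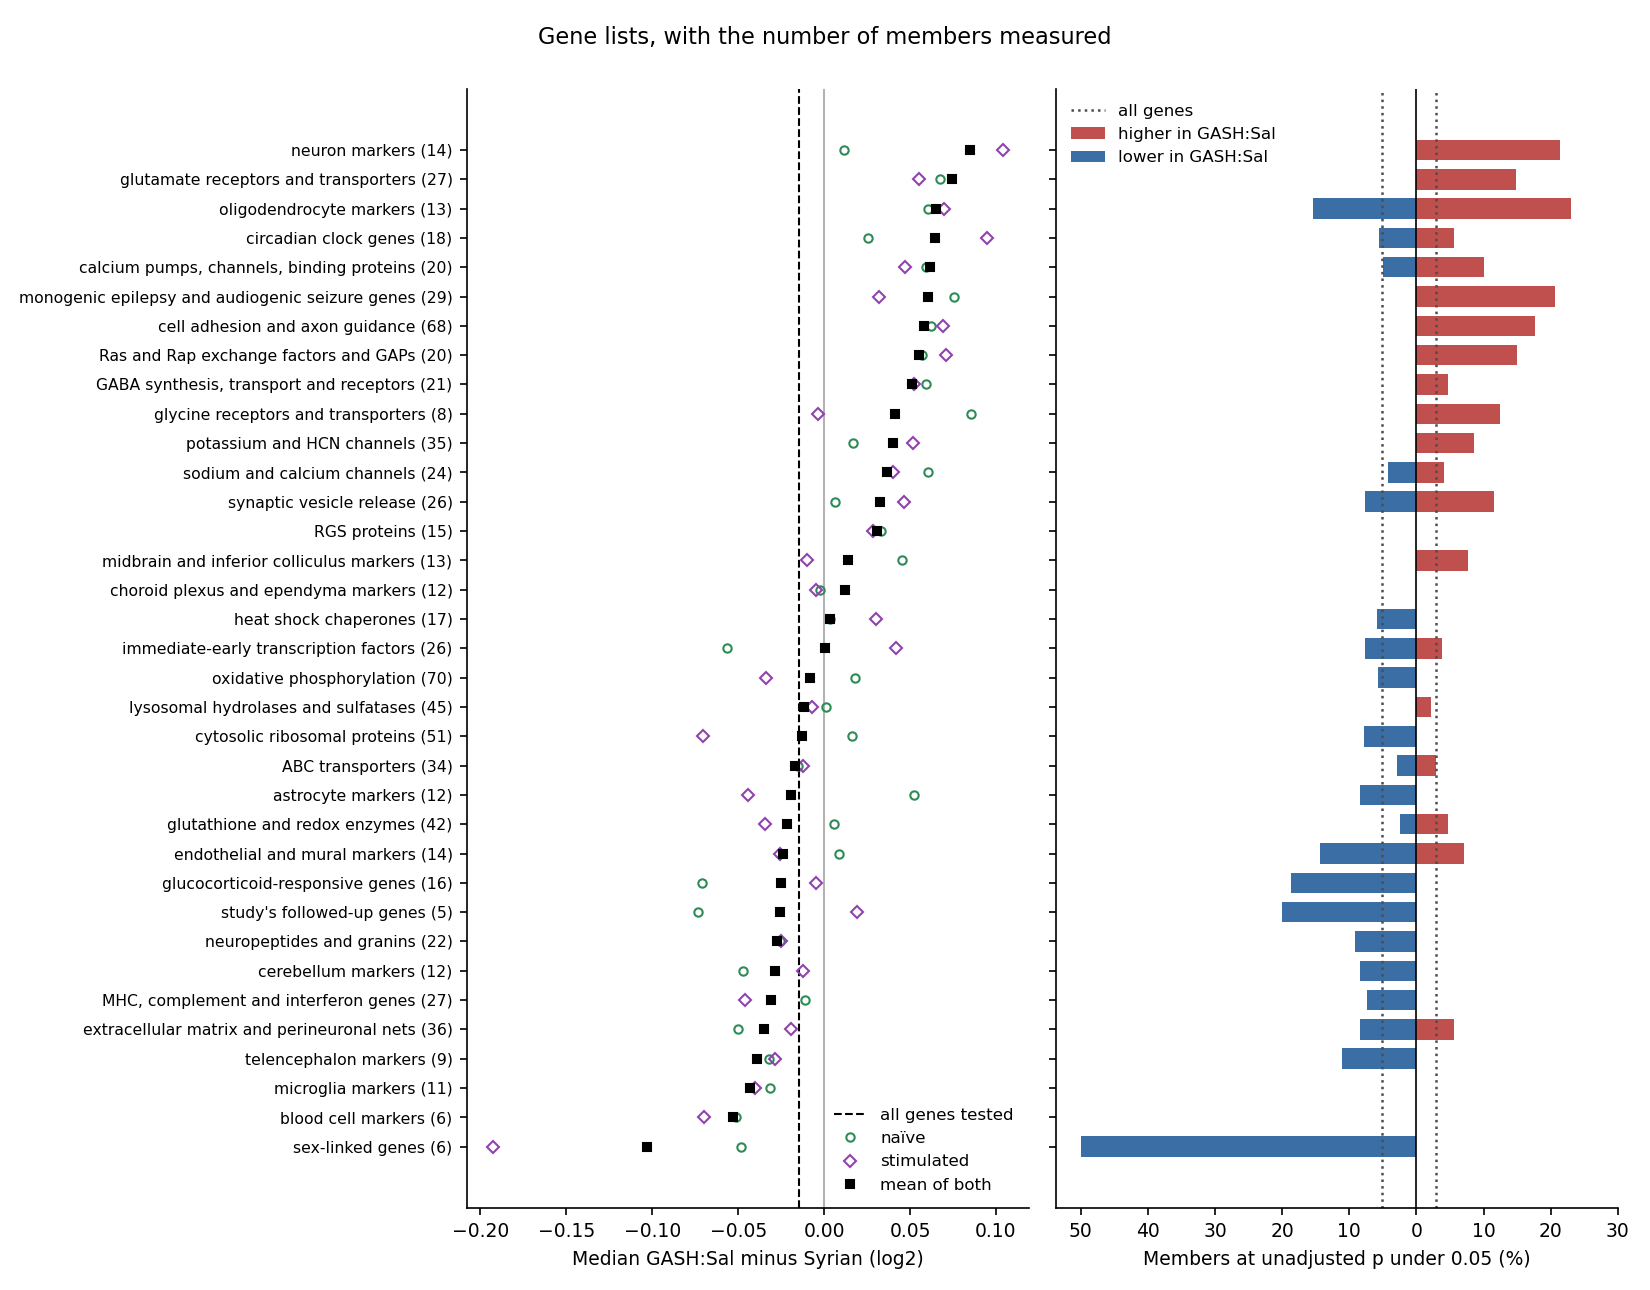
The 35 gene lists, each with its number of measured members in parentheses. Left, median strain difference (GASH:Sal minus Syrian, log2) as the mean of both conditions (black), in naïve (green) and in stimulated animals (purple), with the median of all genes as a dashed line. Right, percent of members higher (red) and lower (blue) at an unadjusted p under 0.05, with the shares of all genes, 2.93% and 5.06%, dotted. Adhesion and guidance genes stand at 17.6% higher and 0 lower, with a median of 0.058.

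The 5 genes that the study followed up were its own choice, partly from transcriptome data of audiogenic strains and partly for other reasons, and their list is not independent evidence of a direction. None passed the adjusted threshold, and Npy, a peptide that dampens glutamate release, was the only member with an unadjusted p under 0.05. Its signal ran from 6.77 to 7.07 (median 6.93) in naïve Syrian, 6.68 to 7.28 (median 6.71) in naïve GASH:Sal, 6.76 to 7.20 (median 6.87) in stimulated Syrian and 6.63 to 6.85 (median 6.80) in stimulated GASH:Sal hamsters. In 11 of 12 GASH:Sal arrays Npy lay below the Syrian median, and all groups overlapped. The difference was -0.13 (SE 0.0612, adjusted p = 0.618), with -0.12 in naïve and -0.13 in stimulated animals. After median centring it was -0.11, and its unadjusted p was no longer under 0.05. Without the arrays that stood apart it was -0.14 (limma, adjusted p = 0.258). In that setting, and after quantile normalization of all arrays, 1 followed-up gene was lower at an unadjusted p under 0.05.

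Egr3, an immediate-early transcription factor, was at 0.070 (SE 0.090), with -0.082 in naïve and 0.22 in stimulated animals. Rgs2, which limits signalling by Gq, was at 0.053 (SE 0.114), with -0.045 in naïve and 0.15 in stimulated animals. Neither had a strain difference of 1 sign in both conditions. Ttr, the thyroxine carrier of the choroid plexus, was at -0.027 (SE 0.0642), with -0.074 in naïve and 0.019 in stimulated animals. Its signs were opposite too. Abcb1a, the P-glycoprotein of the blood-brain barrier, was at -0.026 (SE 0.0783), with -0.024 in naïve and -0.027 in stimulated animals. The 95% intervals of these differences reached from -0.11 to 0.25 for Egr3, -0.18 to 0.29 for Rgs2, -0.16 to 0.10 for Ttr and -0.19 to 0.13 for Abcb1a. The Ttr probe set was dim, at percentile 19.3 of mean signal, with all arrays between 3.31 and 3.98. Its interval describes a weak signal and does not show that the transcript level was equal. The reference gene Actb was at 0.075 (SE 0.0499, adjusted p = 0.704).

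Without the arrays that stood apart, 36 genes (0.181%) passed the adjusted threshold, 32 higher (0.16%) and 4 lower (0.0201%) in GASH:Sal hamsters. With all arrays kept and each weighted by its fit to its group, 19 genes (0.0953%) passed, 16 higher (0.0802%) and 3 lower (0.015%), and 17 genes were common to both counts. Rasgrf2 and Arl15 were among the 36. Of these, Glra3 had the largest difference, followed by the microRNA gene Mir350 (0.66, SE 0.0938, limma, adjusted p = 0.00161). In naïve and stimulated animals Glra3 was at 1.0 and 0.38, Mir350 at 1.0 and 0.32, and Gstp1 at 0.57 and 0.12. The naïve difference was the larger for all of the 36 but Ipo9 (0.27 and 0.28), Anapc1 (0.18 and 0.26) and Snapin (-0.17 and -0.28). Whether the conditions differed was not tested in this setting. Neto1 (0.46), an auxiliary subunit of kainate and NMDA receptors, and Dok6 (0.36), an adaptor of the receptor Ret, passed, as did Epha6 and Spock3 (0.34). Proteins of nuclear function were Thoc2 (0.46), which exports messenger RNA, Nipbl (0.35), which loads cohesin, Top2b (0.35), the neuronal topoisomerase, Zeb2 (0.34), a transcription factor, and Atr (0.30), a kinase of the response to DNA damage. Trafficking and cytoskeletal genes included Pcm1 (0.38), Hook3 (0.34), Snx13 (0.24) and Rock1 (0.29), and Trpm7 (0.34) is a channel for magnesium and calcium. Lower were Atp2a3, Clec2l (-0.29), Defb13 (-0.28) and Snapin (-0.22), a partner of the vesicle protein Snap25. Leaving out naïve GASH:Sal hamster 6 alone gave 36 genes, and leaving out stimulated Syrian hamster 4 alone gave 3. These genes were named after their values were seen.

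**Figure D5:**
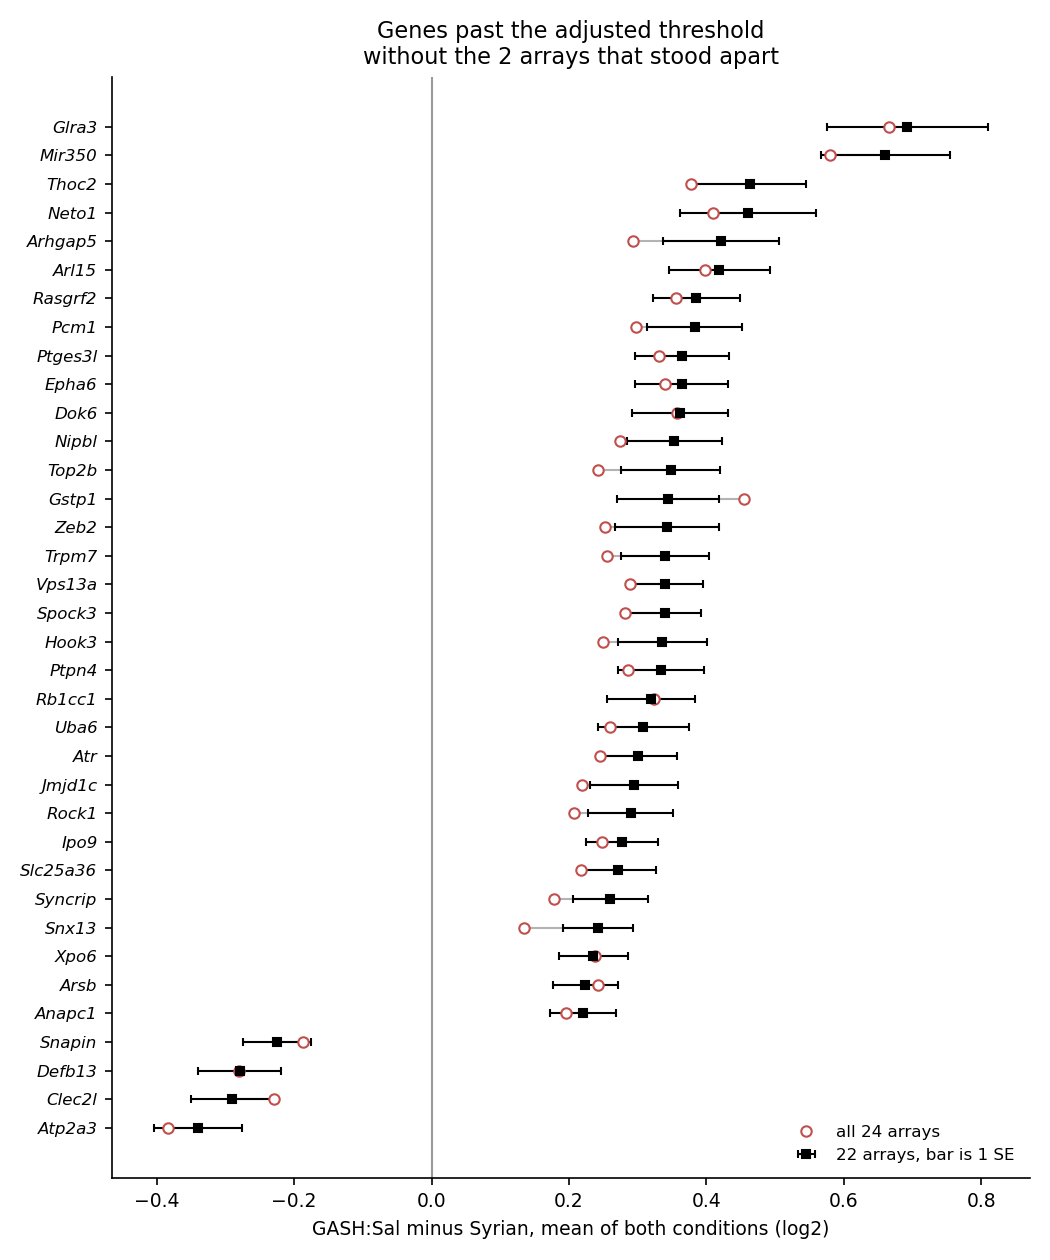
The 36 genes past the adjusted threshold without stimulated Syrian hamster 4 and naïve GASH:Sal hamster 6. The horizontal axis is the mean strain difference of both conditions (GASH:Sal minus Syrian, log2), black squares with bars are the value and SE on the remaining 22 arrays, and open red circles the value on all 24. Gstp1 moved down, from 0.45 to 0.34, and Snx13 up, from 0.13 to 0.24.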

How the data were processed

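Total RNA of the IC was labelled and hybridised to mouse whole-transcript arrays in Salamanca, and only RNA with a high integrity number was used, per the labels. The authors deposited log2 signals of 35556 probe sets on 24 arrays, made with RMA (no version is given in the submitters' processing notes), which corrects background, normalises between arrays and summarises probes. No column was left out (0 columns). Values lay between 1.20 and 14.3, and array medians between 4.50 and 4.65. The platform annotation gave 1 gene symbol to 21789 probe sets, several to 1621 and none to 12146. Probe sets with 1 symbol were used, and where a gene had several (999 genes) the brightest was kept, giving 19938 genes with no filter on dim ones. The platform annotation is of the mouse, and no hamster sequence or gene position was used.

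Strain differences came from limma (version 3.58.1, under R version 4.3.3) by lmFit and eBayes in 1 fit of all arrays, with 4 group means and the label series (replicates 1 to 3 against 4 to 6, whose meaning the sources used here do not state) and 19 residual degrees of freedom. The study's methods describe no test for these arrays. Two-sided p-values received Benjamini-Hochberg adjustment over all genes, with a threshold of 0.05, and intervals are 95% intervals. Each array is labelled as a separate biological replicate. Arrays give no read depth, so their number limits the precision. The fit was checked on simulated data with known differences and independent normal noise. These data held no array that stood apart and no label series effect, so the check covers the computation only.

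The comparison and the gene lists were chosen with earlier results of these data known. As fewer than 10 genes passed, the 15 genes with the lowest p in each direction are given, with the study's genes Egr3, Npy, Rgs2, Ttr, Abcb1a and Actb and with Rasgrf2, Gstp1 and Arsb, and other list members were named after their values were seen. Alternatives were other covariates (no label series, an additive model, replicate number as a block), each label series alone, filters, probe set choices, median centring, quantile normalization, eBayes with trend and robust, array weights, stricter thresholds and each array left out in turn. Leaving out the arrays that stood apart, and the share of higher and lower genes under each scaling, were added after seeing the data. When all 35556 probe sets were tested together, 0 passed (limma, lowest adjusted p = 0.182) and 2655 had an unadjusted p under 0.05, of which 895 had no symbol and 149 several.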

Additional observations from a re-analysis of the deposited data

Results flagged for a closer look

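In 14 of 144 groups of 6 arrays (36 genes in 4 groups), the lowest or highest array lay further from its group than Dixon's 95% criterion allows, which chance gives in about 1 of 20 groups. Naïve GASH:Sal hamster 6, one of the arrays that stood apart, accounted for 6 of the 14. It was the lowest of its group for Glra3 (4.17, next array 5.37), Ptges3l (3.85, next 4.25), Spock3 (3.99, next 4.41) and Vps13a (3.92, next 4.53), and the highest for Actb (9.43, next 9.09) and Npy (7.28, next 6.75). Without this array the strain difference was 0.77 for Glra3, 0.36 for Ptges3l, 0.32 for Spock3 and 0.34 for Vps13a, all past the adjusted threshold (limma, adjusted p = 0.00922, 0.0120, 0.00922 and 0.00684), and 0.050 for Actb and -0.17 for Npy, which did not pass (0.75 and 0.19). Stimulated Syrian hamster 4, the other array that stood apart, was the highest of its group for Atp2a3 (6.20, next 5.63).

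The remaining 7 lay on other arrays. Stimulated Syrian hamster 2 was the highest of its group for Arl15 (5.998, next 5.53), on the side of the GASH:Sal values, and without it Arl15, Rasgrf2 and Arsb passed the adjusted threshold. Stimulated GASH:Sal hamster 1 was the lowest of its group for H2-M5 (4.14, next 4.34) and Sall2 (4.52, next 4.74). Naïve GASH:Sal hamster 2 was low for Abcb1a (4.42, next 4.97), and stimulated GASH:Sal hamster 4 was high for Leprot (3.96, next 3.73). Naïve Syrian hamster 2 was high for Zer1 (7.24, next 6.89), and stimulated Syrian hamster 6 was high for Myl12b (5.93, next 5.81).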

How the results depend on the processing

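Rasgrf2 and Arl15 kept their direction under each of 36 alternatives that kept 1 value per gene and the same threshold, at 0.33 to 0.39 and 0.34 to 0.46, with adjusted p-values from 0.00375 to 0.455 and from 0.00341 to 0.528, and each passed in 13. The count of 2 genes past the threshold, all higher and all of the same sign in both conditions, was 0 (0 higher, 0 of the same sign) without the label series, with an additive model, in replicates 1 to 3 alone, in replicates 4 to 6 alone, over every probe set, with a difference of at least 1.5-fold and at an adjusted p under 0.01 (limma). In the same order, 1377, 1637, 1615, 1707 and, over every probe set, 2655 had an unadjusted p under 0.05, and 1593 at both stricter thresholds. The count of genes past the threshold was 19 with array weights (16 higher, 3 lower, 19 of the same sign) and 36 without the 2 arrays that stood apart (32 higher, 4 lower, 36 of the same sign), and 17 genes were shared by these. It was 3 with a filter at the median signal, median centring or quantile normalization, and 2 with probe sets of a gene averaged or with trend and robust. Leaving out each array gave 0 to 36 genes, 0 to 34 higher, 0 to 2 lower and 0 to 36 of the same sign. Without naïve GASH:Sal hamster 6 there were 36, without naïve GASH:Sal hamster 3 there were 5, and without stimulated Syrian hamster 2 or 4 there were 3. Naïve arrays alone gave 2 genes in place of 0 with the median filter, median centring, and trend and robust. The cause of these changes was not tested.

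The replicate number as a block gave 0 genes (limma, 0 higher, 0 of the same sign in both conditions, 1483 at an unadjusted p under 0.05, lowest adjusted p = 0.105). Same-numbered arrays of different groups did not deviate together (36 correlations from -0.212 to 0.116, 5 of 24 arrays closest to their own number), so the numbers were not read as pairs.

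Of the named genes, values near 0 turned sign. Egr3 was at -0.15, Ttr at 0.013 and Abcb1a at 0.025 in replicates 1 to 3, Rgs2 at -0.0070 in replicates 4 to 6 and Ttr at 0.0013 after quantile normalization. Leaving out 1 array gave -0.065 to 0.025 for Abcb1a and -0.018 to 0.13 for Rgs2. Dim probe sets, hamster RNA on mouse probes and 3 animals per group and label series limit these comparisons.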
